A study of Mus musculus with 12 samples.

Results

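Genes for the T cell receptor complex and for T cell surface markers were followed through RNA of mouse lung CD11c+ cells. They were taken by name: all probe sets of the arrays whose only gene symbol was Cd3d, Cd3e, Cd3g, Cd247, Lat, Lck, Cd4, Cd8a, Cd8b1 or Thy1. Of these 10 genes 9 were measured, by 17 of the 45101 probe sets, among 18193 genes in all. No probe set carried the symbol Lck alone, so Lck, the kinase that starts signalling at the receptor, was not analysed here.

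T cells recognise antigen through a receptor that has no signalling part of its own. It sits in the membrane with the CD3 gamma, delta and epsilon chains and the zeta chain, encoded by Cd3g, Cd3d, Cd3e and Cd247, which carry the motifs that are phosphorylated once the receptor binds. The co-receptors CD4 and CD8 bind the presenting MHC molecule and bring Lck to the receptor, and the adaptor LAT then gathers the signalling proteins downstream. In defence against Pneumocystis, a fungus of the lung, CD4+ T cells are known to be needed for clearance.

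All 12 mice had been infected with Pneumocystis through the trachea, and no uninfected group was analysed here. The IFNAR-/- mice lack the receptor for type I interferons, and the wildtype mice have it. There were 3 wildtype and 3 IFNAR-/- mice at day 7 after infection and 3 of each at day 14, with 1 array per mouse. Strain, age and sex were not given in the sources used here. CD11c is an integrin of alveolar macrophages and dendritic cells, some activated T and NK cells also carry it, and the cells were enriched with magnetic beads against it from collagenase-digested lung. The labels put the purity above 90% and the lymphocytes among the other cells under 5%. The study asked, in these cells, about type I interferon signalling during the infection. Each comparison of genotypes or days here therefore concerns T cell transcripts in a preparation meant to hold few T cells. In such bulk RNA, fewer T cells and less RNA per T cell cannot be told apart.

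A value below is the log2 of a probe set's ratio to about its own median over the 12 arrays, averaged over the probe sets of a gene. A value of 0 is a gene's own middle array. The ratios hold no absolute level, so nothing shows which of these genes was more abundant than another or lay near background, and the presence of CD11c+ cells cannot be read from them either. Itgax, which encodes CD11c, did not pass the test in any of the 5 comparisons (IFNAR-/- minus wildtype 0.02 ± 0.13 SE at day 7 and 0.22 ± 0.13 at day 14, n = 3 mice per group). Of the 2 probe sets for Ifnar1, the gene of the missing receptor chain, 1449026_at lay lower in each IFNAR-/- array than in every wildtype array of the same day, and 1442222_at did not. Where either lies relative to the disrupted part of the gene is not known here. Markers of lung tissue stood high in IFNAR-/- day 7 mouse 3 (median log2 ratio 2.11 for 16 epithelial and 2.36 for 14 endothelial genes) and in wildtype day 7 mouse 1 (2.08 and 1.54). IFNAR-/- day 14 mouse 2 stood apart from the other arrays on the second principal component. The arrays also differed in control signals. The 5' over 3' signal of control transcripts was 0.11 ± 0.06 (SD, n = 3) in wildtype and -0.11 ± 0.35 in IFNAR-/- mice at day 7, and -0.45 ± 0.41 and 0.12 ± 0.05 at day 14. The poly-A control signal was 1.56 ± 0.68 in wildtype and -0.59 ± 2.84 in IFNAR-/- mice at day 7, and -2.64 ± 0.86 and -0.62 ± 1.07 at day 14. Signal of 18S RNA was 1.24 ± 1.13 in wildtype mice at day 14 and 0.07 ± 0.74 in IFNAR-/- mice. Both the 5' over 3' and the poly-A signal thus had the members' direction between genotypes on each day, and their part in the members' differences was not tested.

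The members moved together. For all 9 measured members the group means had the same order, lowest in IFNAR-/- mice at day 7, then wildtype at day 14, wildtype at day 7 and highest in IFNAR-/- mice at day 14; 5.33% of all genes had this order. In IFNAR-/- mice 7 of the 9 rose from day 7 to day 14, by 1.39-fold for Cd247 to 8.38-fold for Thy1, in a comparison that called 12.3% of all genes. At day 14, 5 of the 9 were higher in IFNAR-/- than in wildtype mice, where 5.04% of all genes were called in either direction. At day 7 all 9 lay lower in IFNAR-/- mice with none past the test, against 2.64% of all genes called. Neighbours in the order were not well separated: the wildtype day 14 arrays all lay above the IFNAR-/- day 7 arrays for 3 members (Cd8a, Cd8b1 and Thy1; 18.5% of all genes did so), and the IFNAR-/- day 14 arrays all lay above the wildtype day 7 arrays for Lat alone (11.1% of all genes).

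**Figure D1:**
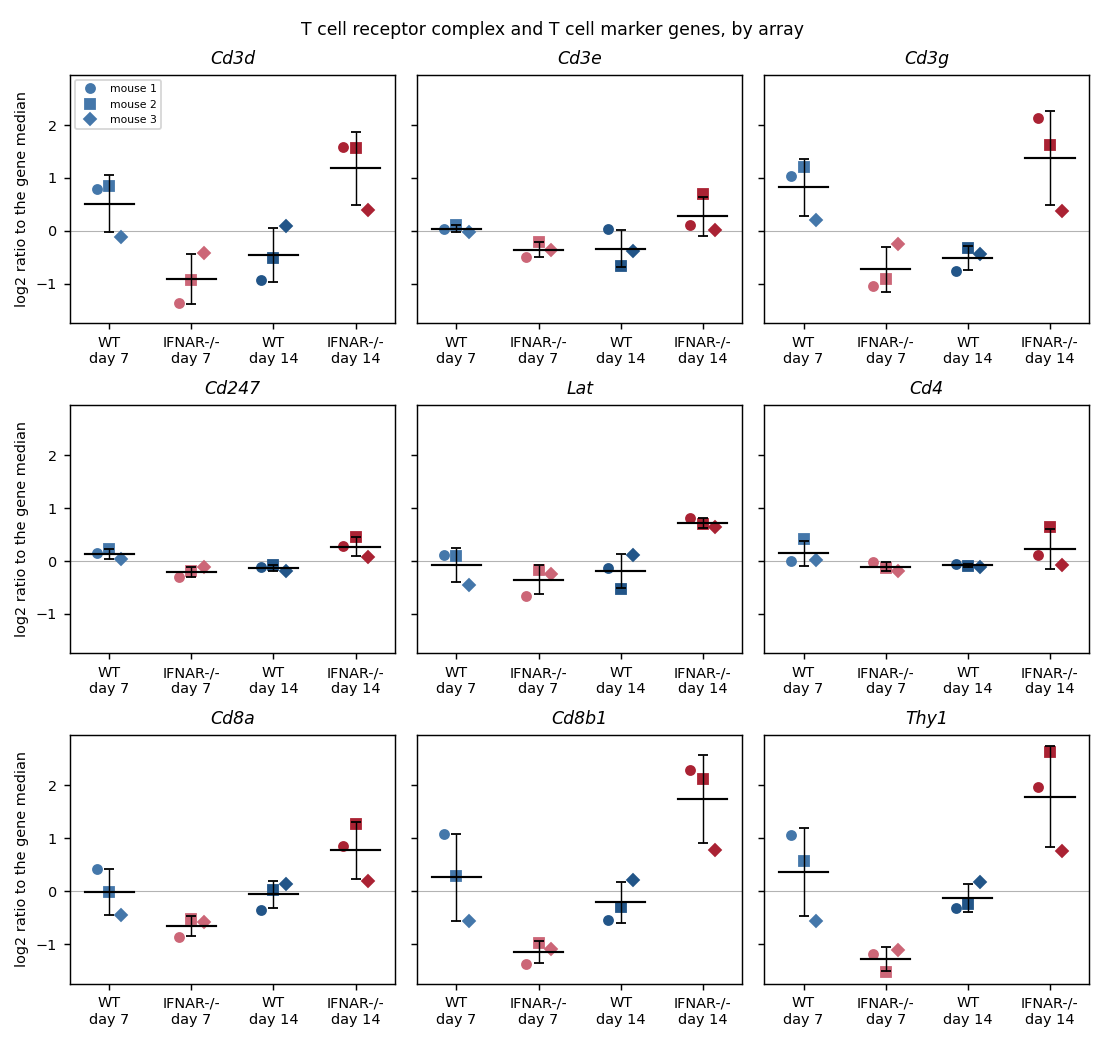
Log2 ratio (vertical axis, to each gene's own median) of the 9 measured members in each of the 12 arrays, grouped by genotype and day on the horizontal axis; points are mice and bars the mean ± SD (n = 3). The IFNAR-/- day 14 arrays reach 2.64 for Thy1, 2.30 for Cd8b1 and 2.13 for Cd3g, and the IFNAR-/- day 7 group has the lowest mean for each member.

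The CD3 chains come first. Cd3g, Cd3d and Cd3e encode the gamma, delta and epsilon chains and lie next to each other on chromosome 9, with Cd3g and Cd3d read away from each other from starts 1355 bases apart. The 250 bases before each RefSeq start (build GRCm38.p6) are printed because the 3 genes are neighbours. Cd3g and Cd3d moved almost as one (r = 0.97 over the 12 arrays) and Cd3e less closely (r = 0.73 with Cd3d and 0.72 with Cd3g). Members outside these 3 genes were as close, such as Cd8b1 and Thy1 (r = 0.98), so this likeness is not particular to the neighbours. The windows lie at chr9:44980432-44980681 on the minus strand for Cd3g, chr9:44981536-44981785 on the plus strand for Cd3d and chr9:45009612-45009861 on the minus strand for Cd3e. Each runs 5′ to 3′ along its gene, and capitals mark the letters searched for on both strands. These were GGAAG as in sites of ETS factors, TGTGGT as in sites of RUNX factors, AGATAA as in sites of GATA factors, the E-box CAGGTG, and the letters TATAAA of the TATA box.
Cd3g: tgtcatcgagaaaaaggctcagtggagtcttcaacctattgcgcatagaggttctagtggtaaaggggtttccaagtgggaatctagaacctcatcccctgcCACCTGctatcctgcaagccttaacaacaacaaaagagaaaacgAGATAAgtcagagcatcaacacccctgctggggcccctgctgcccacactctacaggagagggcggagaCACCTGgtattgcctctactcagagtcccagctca
Cd3d: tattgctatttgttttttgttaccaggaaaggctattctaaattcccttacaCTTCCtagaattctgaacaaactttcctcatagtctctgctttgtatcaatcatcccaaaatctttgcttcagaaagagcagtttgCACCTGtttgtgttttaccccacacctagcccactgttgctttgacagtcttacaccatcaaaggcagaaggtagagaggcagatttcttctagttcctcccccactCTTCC
Cd3e: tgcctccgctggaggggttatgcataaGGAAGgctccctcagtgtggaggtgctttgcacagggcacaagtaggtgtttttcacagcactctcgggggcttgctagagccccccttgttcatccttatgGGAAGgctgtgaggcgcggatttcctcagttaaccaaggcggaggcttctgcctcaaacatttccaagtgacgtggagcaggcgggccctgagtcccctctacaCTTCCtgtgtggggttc
The Cd3g window holds 1 GATA match and 2 E-box matches, the Cd3d window 2 ETS and 1 E-box, and the Cd3e window 3 ETS. None of the 3 holds TGTGGT or TATAAA, and no matches overlap. Of 32851 promoter windows of this length, 64.1% hold GGAAG, 17.2% CAGGTG, 14% TGTGGT, 12.4% TATAAA and 9.99% AGATAA, so the ETS letters are common. A match describes the sequence and is not a binding site, and a missing match says only that those letters are not in the window. RefSeq sequences were found for 7 of the 10 listed genes.

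In wildtype mice at day 7 Cd3g stood at 1.04, 1.21 and 0.21 (mouse 1, 2 and 3), and in IFNAR-/- mice at day 7 at -1.04, -0.90 and -0.25. At day 14 Cd3g was at -0.76, -0.32 and -0.44 in wildtype mice and at 2.13, 1.62 and 0.38 in IFNAR-/- mice. The genotypes did not overlap on either day, and their order turned between the days. In IFNAR-/- mice Cd3g rose 4.31-fold from day 7 to day 14 (log2 difference 2.11 ± 0.40 SE, limma adjusted p = 0.00778), and at day 14 it was 1.89 ± 0.40 higher than in wildtype mice (adjusted p = 0.0258). At day 7 the difference was -1.55 ± 0.40 (adjusted p = 0.0738). The change in the genotype difference, 3.44 ± 0.57, passed (adjusted p = 0.0158), and was the only member's change to pass with each of the 12 arrays left out in turn.

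Cd3d followed Cd3g closely. Its wildtype day 7 values were 0.80, 0.85 and -0.11 and its IFNAR-/- day 7 values -1.37, -0.92 and -0.42. At day 14 they were -0.93, -0.52 and 0.09 in wildtype and 1.59, 1.56 and 0.39 in IFNAR-/- mice. Again no array of one genotype reached the range of the other on the same day. Cd3d rose by 2.08 ± 0.39 (adjusted p = 0.00716) between the days in IFNAR-/- mice, and was 1.63 ± 0.39 higher than in wildtype mice at day 14 (adjusted p = 0.0388). Its day 7 difference of -1.42 ± 0.39 did not pass (adjusted p = 0.0938), while the change of the difference did (3.05 ± 0.55, adjusted p = 0.0215).

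Cd3e, measured by 1 probe set like the other CD3 genes, covered a smaller range, from -0.66 in a wildtype day 14 mouse to 0.70 in an IFNAR-/- day 14 mouse. In IFNAR-/- mice it read -0.50, -0.21 and -0.36 on day 7, against 0.11, 0.70 and 0.01 on day 14, without overlap. The rise of 0.63 ± 0.20 missed the threshold (adjusted p = 0.0632), as did the genotype differences of -0.39 ± 0.20 at day 7 (adjusted p = 0.443) and 0.61 ± 0.20 at day 14 (adjusted p = 0.107). At day 14 the genotypes overlapped, since wildtype mouse 1 stood at 0.04.

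The zeta chain gene Cd247 was measured by 4 probe sets that did not move alike (pairwise r from -0.16 to 0.54). Only 1426396_at varied widely, with an SD of 0.67 over the 12 arrays, against 0.14 to 0.26 for the other 3. It read 0.37, 0.73 and 0.02 in wildtype and -1.12, -0.76 and -0.02 in IFNAR-/- mice at day 7. At day 14 it read -0.34, -0.59 and -0.24 in wildtype and 0.75, 1.17 and 0.07 in IFNAR-/- mice, which put the genotypes apart on both days. Tested among all probe sets, 1426396_at rose by 1.30 ± 0.32 between the days in IFNAR-/- mice (adjusted p = 0.0279) and changed its genotype difference by 2.06 ± 0.45 (adjusted p = 0.0419), and the other 3 passed neither test. Over all probe sets 8.67% were called for the day in IFNAR-/- mice and 2.06% for the change. The mean of the 4 probe sets rose by 0.48 ± 0.11 in IFNAR-/- mice (adjusted p = 0.0186) and changed its genotype difference by 0.74 ± 0.16 (adjusted p = 0.0363). Its day 14 genotype difference of 0.40 ± 0.11 did not pass (adjusted p = 0.0633). The rise of the mean lost its call without IFNAR-/- day 7 mouse 1. The change of its genotype difference lost its call in 8 of the 12 fits with 1 array left out. The size of the Cd247 change therefore depended on which probe sets were read.

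Lat, the adaptor, was measured by 1 probe set. In IFNAR-/- mice at day 14 it stood at 0.82, 0.69 and 0.64, with the smallest SD (0.09) of the 9 members in that group, and in wildtype mice that day at -0.12, -0.53 and 0.11. At day 7 it stood at 0.11, 0.10 and -0.45 in wildtype and -0.66, -0.16 and -0.24 in IFNAR-/- mice, where the genotypes overlapped. All IFNAR-/- day 14 arrays thus lay above the other 9. Lat rose 2.10-fold in IFNAR-/- mice (1.07 ± 0.20, adjusted p = 0.00682) and was 0.90 ± 0.20 higher than in wildtype mice at day 14 (adjusted p = 0.0282). At day 7 the difference was -0.28 ± 0.20 (adjusted p = 0.686), and the change between the days, 1.18 ± 0.28, just missed the threshold (adjusted p = 0.0538).

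Of the co-receptors, the CD8 genes moved most. CD8 on most cytotoxic T cells is a pair of an alpha and a beta chain, and the alpha chain is also found on some dendritic cells and NK cells, whereas the beta chain gene Cd8b1 is more closely tied to T cells. Cd8b1 stood at 1.08, 0.29 and -0.57 in wildtype and at -1.38, -0.98 and -1.10 in IFNAR-/- mice at day 7. At day 14 it stood at -0.55, -0.29 and 0.21 in wildtype and at 2.30, 2.13 and 0.78 in IFNAR-/- mice. The 3 IFNAR-/- mice were thus below all wildtype mice at day 7 and above them at day 14. Cd8b1 rose 7.43-fold in IFNAR-/- mice (2.89 ± 0.44, adjusted p = 0.00242) and was 1.94 ± 0.44 higher than in wildtype mice at day 14 (adjusted p = 0.0293). At day 7 the difference of -1.42 ± 0.44 did not pass (adjusted p = 0.131), and the change of the difference did (3.37 ± 0.62, adjusted p = 0.0221).

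Cd8a, the alpha chain gene, was measured by 5 probe sets with pairwise r from 0.65 to 0.92, and its mean followed Cd8b1 with r = 0.97. The mean stood at 0.42, -0.02 and -0.46 in wildtype and -0.87, -0.52 and -0.58 in IFNAR-/- mice at day 7. At day 14 it stood at -0.35, 0.03 and 0.14 in wildtype and 0.85, 1.27 and 0.20 in IFNAR-/- mice. The genotypes were apart on both days, though wildtype mouse 3 at day 7 and IFNAR-/- mouse 3 at day 14 came near the other genotype. Cd8a rose 2.70-fold between the days in IFNAR-/- mice (1.43 ± 0.27, adjusted p = 0.00768), and its genotype differences of -0.64 ± 0.27 at day 7 (adjusted p = 0.318) and 0.83 ± 0.27 at day 14 (adjusted p = 0.107) did not pass. Tested one by one, 3 of its 5 probe sets passed for the rise in IFNAR-/- mice: 1444078_at by 2.48 ± 0.39 (adjusted p = 0.00393), 1451673_at by 2.09 ± 0.36 (adjusted p = 0.00596) and 1425335_at by 1.36 ± 0.31 (adjusted p = 0.0216). The remaining sets, 1440164_x_at at 0.74 ± 0.27 and 1440811_x_at at 0.49 ± 0.21, did not. For the change of the genotype difference 1451673_at passed (2.44 ± 0.51, adjusted p = 0.0381), and the other 4 sets and the mean did not.

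Cd4, the co-receptor gene of helper T cells, which macrophages and dendritic cells can also express, showed no call. Its mean over 2 probe sets ranged from -0.18 to 0.65 over the 12 arrays. In IFNAR-/- mice it stood at -0.01, -0.12 and -0.18 at day 7, against 0.11, 0.65 and -0.08 on day 14, and the days overlapped. The 2 sets were only loosely alike (r = 0.39), and the highest value came from 1427779_a_at in IFNAR-/- day 14 mouse 2, at 1.13. The differences were 0.33 ± 0.18 for the day in IFNAR-/- mice (adjusted p = 0.233), 0.31 ± 0.18 between genotypes at day 14 (adjusted p = 0.347) and -0.25 ± 0.18 at day 7 (adjusted p = 0.662). The 95% interval of the day 14 difference ran from -0.07 to 0.70.

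Thy1, a surface glycoprotein of mouse T cells that fibroblasts also carry, showed the widest range. It stood at 1.07, 0.56 and -0.56 in wildtype and -1.19, -1.54 and -1.11 in IFNAR-/- mice at day 7, and at -0.32, -0.23 and 0.17 in wildtype and 1.97, 2.64 and 0.75 in IFNAR-/- mice at day 14. The genotypes were apart on both days, in opposite orders. Thy1 rose 8.38-fold in IFNAR-/- mice (3.07 ± 0.46, adjusted p = 0.00234) and was 1.91 ± 0.46 higher than in wildtype mice at day 14 (adjusted p = 0.0388). At day 7 the difference was -1.64 ± 0.46 (adjusted p = 0.0978), and the change of the difference was 3.55 ± 0.65 (adjusted p = 0.0218). Fibroblast genes had medians of 0.77, 0.34 and -0.007 in the wildtype day 7 mice, in the same order as Thy1. In IFNAR-/- mice at day 7 they had medians of -0.02, -0.01 and 1.99, and mouse 3, at 1.99, also had the highest Thy1 of its group, at -1.11. At day 14 the orders differed. The fibroblast medians were -0.04, 0.03 and 0.08 in IFNAR-/- mice, where mouse 3 had the lowest Thy1. In wildtype mice that day they were -0.38, -0.38 and -0.42, and mouse 3 had the highest Thy1. The part of fibroblast RNA in the Thy1 values was not tested.

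**Figure D2:**
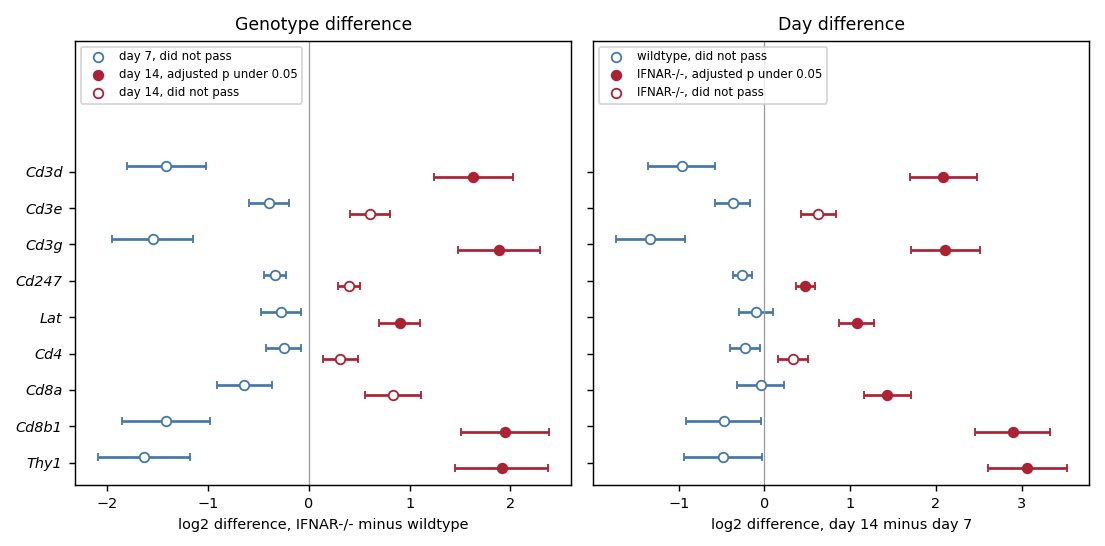
Log2 differences (horizontal axis) of the 9 measured members in the genotype and day comparisons, with bars of 1 SE; filled points passed the limma test at an adjusted p under 0.05. Every member lies below 0 for the genotype difference at day 7 and above 0 at day 14, and the day difference in IFNAR-/- mice holds the most filled points (7 of 9).

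The day comparison in IFNAR-/- mice was the firmest. All 9 members had a higher mean at day 14 and 7 rose past the threshold: Cd3d, Cd3g, Cd247, Lat, Cd8a, Cd8b1 and Thy1. Over all genes 4.08% were called as higher. The day groups were apart for 8 members, all but Cd4 (16.2% of all genes were apart in this direction). Of all genes 53.1% had a difference above 0. The members' median difference was 1.43 and that of all genes 0.02. With each array left out in turn 6 to 8 members were called, and Cd3d, Cd3g, Lat, Cd8a, Cd8b1 and Thy1 passed every time.

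In wildtype mice the members lay lower at day 14 than at day 7, with a median difference of -0.37 against 0.02 for all genes, and none passed the limma test after Benjamini-Hochberg adjustment, while 3 of 9 had an unadjusted p under 0.05. Over all genes 7.98% were called, 4.1% as lower, 46.4% had a difference below 0 and 22.1% had an unadjusted p under 0.05. The nearest to the threshold was Cd3g with -1.33 ± 0.40 (adjusted p = 0.0708), and the next were Cd3d with -0.97 ± 0.39 (adjusted p = 0.173) and Cd247 with -0.26 ± 0.11 (adjusted p = 0.19). The days were apart for Cd3g, Cd247 and Cd4 (15.2% of all genes were apart in this direction). Cd8a at -0.04 ± 0.27 and Lat at -0.10 ± 0.20 had differences smaller than their errors. Without IFNAR-/- day 14 mouse 1 or mouse 3, which are not in this comparison but enter the shared spread, Cd3g passed.

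At day 14, Cd3d, Cd3g, Lat, Cd8b1 and Thy1 were higher in IFNAR-/- mice, and Cd3e, Cd247, Cd4 and Cd8a did not pass. Over all genes 1.75% were called as higher, and 50.5% had a difference above 0. The genotypes were apart for 7 members, all but Cd3e and Cd4 (10.2% of all genes were apart in this direction), and the members' median difference was 0.90 against 0.003 for all genes. These calls rested on few arrays. None was left without IFNAR-/- day 14 mouse 1, IFNAR-/- day 14 mouse 2, wildtype day 14 mouse 1 or wildtype day 14 mouse 2. Only Lat was left without wildtype day 14 mouse 3, and 3 were left without IFNAR-/- day 7 mouse 2. Calls over all genes fell as well, from 917 to 555, 794, 659, 384, 384 and 792 without these arrays in that order. All 9 members' differences stayed above 0 throughout. The 5' over 3' control signal differed between these groups in the same direction. With it as a covariate 0 members passed, at a median difference of 1.19, and over all genes 37 passed in place of 917.

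At day 7, all 9 members lay lower in IFNAR-/- mice, with a median difference of -0.64, against -0.001 for all genes. None passed the limma test, and 6 of 9 had an unadjusted p under 0.05; over all genes 1.35% were called as lower, 50.3% had a difference below 0 and 13.8% had an unadjusted p under 0.05. The genotypes were apart for 8 members, all but Lat (11.6% of all genes were apart in this direction). Wildtype mouse 3 was the lowest of its group for 8 members, and without it Cd3g, Cd8b1 and Thy1 passed. Without IFNAR-/- day 14 mouse 3 Cd3g and Thy1 passed.

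The genotype difference changed between the days for Cd3d, Cd3g, Cd247, Cd8b1 and Thy1, which lay lower in IFNAR-/- mice at day 7 and higher at day 14. Over all genes 2.48% were called in this comparison, 1.14% as higher, 49.2% had a value above 0 and 18.1% had an unadjusted p under 0.05. Of all genes 26.4% had a difference below 0 at day 7 and above 0 at day 14. All 9 members had a value above 0 and an unadjusted p under 0.05, and the changes of the others were 1.18 ± 0.28 for Lat, 1.48 ± 0.39 for Cd8a (adjusted p = 0.0678), 1.00 ± 0.28 for Cd3e (adjusted p = 0.0851) and 0.56 ± 0.25 for Cd4 (adjusted p = 0.261). Cd3g alone was left as a call without IFNAR-/- day 7 mouse 1, IFNAR-/- day 7 mouse 2, wildtype day 7 mouse 2 or wildtype day 14 mouse 2. Without wildtype day 7 mouse 1, 3 were left. Without IFNAR-/- day 14 mouse 1, wildtype day 14 mouse 1 or wildtype day 14 mouse 3, 4 were left, all but Cd247. Calls over all genes fell as well, from 451 to 168, 138, 167, 230, 180, 381, 348 and 222 without these arrays in that order. With the 5' over 3' control signal as a covariate 0 members passed by limma, at a median change of 1.83 against 1.48 without it. Over all genes 3 passed with that covariate in place of 451, and the part of that signal in the result was not tested. This comparison is built from both genotype comparisons and shares all its arrays with them.

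**Figure D3:**
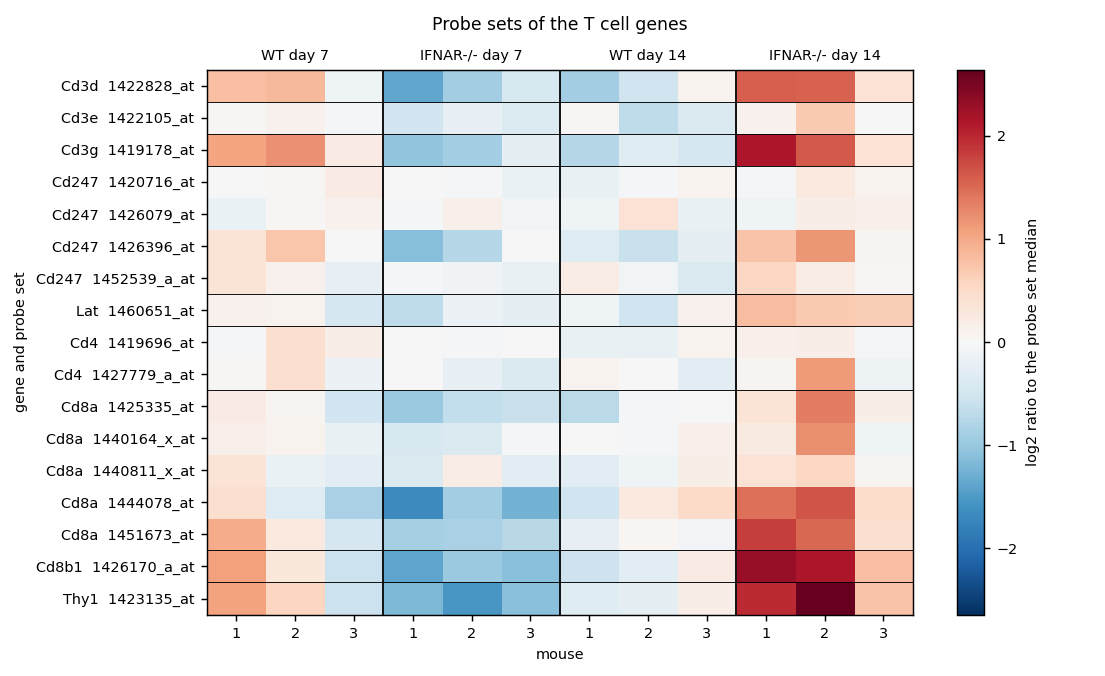
Heat map of the log2 ratio (colour scale) of the 17 probe sets of the members (vertical axis) in the 12 arrays (horizontal axis, by group). The sets of Cd3d, Cd3g, Cd8b1 and Thy1 change colour together across the groups, and of the 4 Cd247 sets 1426396_at has an SD of 0.67 against 0.14 to 0.26 for the other 3.

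Among themselves the members had pairwise correlations over the 12 arrays from 0.47 (Lat and Cd4) to 0.98 (Cd8b1 and Thy1), with a median of 0.84 over 36 pairs. The arrays share the group structure, so these describe the groups as well as single mice. Within 2 groups the lowest mouse was nearly always the same one. IFNAR-/- day 14 mouse 3 was the lowest of its group for all 9 members, and wildtype day 7 mouse 3 for 8, the exception being Cd4. In IFNAR-/- mice at day 7 the lowest was mouse 1 for all members but Cd4 and Thy1. In wildtype mice at day 14 the lowest mouse varied from member to member. The 8 genes whose ratios ran closest to the mean of the members were Trav9d-3 (r = 0.97), Cxcr6 (0.96), Gimap7 (0.95), Nkg7 (0.95), Cd27 (0.95), Fasl (0.95), Ctsw (0.95) and Sdr39u1 (0.94). Trav9d-3, a variable segment of the T cell receptor alpha chain, stood at -0.51, -0.60 and 0.03 in IFNAR-/- mice at day 7 and 1.10, 1.37 and 0.50 at day 14, and Fasl, the death ligand of cytotoxic lymphocytes, at -0.55, -0.42 and -0.44 and at 1.52, 1.64 and 0.72. These genes were chosen by their likeness to the members over the same arrays, so their differences between groups follow from the choice and are no separate evidence.

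Other genes of the pathway moved less evenly. A list of 33 measured genes of T cell receptor signalling (36 listed, members left out) had 2 lower in IFNAR-/- mice at day 7, and 3 higher and 1 lower at day 14, with median differences of -0.15 and 0.22. At day 7 the kinases Fyn (-0.92 ± 0.15, adjusted p = 0.00858) and Tec (-0.76 ± 0.13, adjusted p = 0.0136) were lower. At day 14 the phosphatase gene Ptpn22 (1.27 ± 0.20, adjusted p = 0.00942), the Ras activator Rasgrp1 (1.18 ± 0.26, adjusted p = 0.0285) and the kinase Txk (0.66 ± 0.17, adjusted p = 0.0474) were higher, and Cblb, a ubiquitin ligase that restrains the receptor, was lower (-1.12 ± 0.17, adjusted p = 0.00807). Many of these genes are not specific to T cells. Between the days in IFNAR-/- mice 10 of the 33 rose and 3 fell, where 4.08% and 8.25% of all genes did. Zap70, the kinase that binds the phosphorylated CD3 and zeta chains, rose by 0.56 ± 0.16 (adjusted p = 0.0476), and Prkcq, a protein kinase of T cells, by 0.84 ± 0.20 (adjusted p = 0.0227).

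Of 23 measured genes of T cell identity other than the members (28 listed), 1 was lower at day 7 in IFNAR-/- mice and 5 were higher at day 14, with medians of -0.25 and 0.52. Cd7 was the one at day 7 (-0.98 ± 0.14, adjusted p = 0.00446). At day 14 the chemokine receptor genes Cxcr6 (2.26 ± 0.38, adjusted p = 0.0104) and Cxcr3 (1.42 ± 0.19, adjusted p = 0.00453) were higher, with Cd96, Cd27 and Cd6 at 0.96 ± 0.20, 0.88 ± 0.20 and 0.70 ± 0.17. Between the days in IFNAR-/- mice 7 of the 23 rose (Cd6, Cd7, Cd27, Cd96, Themis, Cxcr6 and Cxcr3) and 1 fell. The one that fell was Cd2, an adhesion molecule, by 1.59 ± 0.42 (adjusted p = 0.0317), and in wildtype mice it fell by 2.68 ± 0.42 (adjusted p = 0.0046). Of 18 measured genes of T cell activation and regulatory T cells (19 listed), 3 were lower at day 7 and 3 higher at day 14. Cd69, an early activation marker, was in both counts, at -1.20 ± 0.19 (adjusted p = 0.00751) and 1.50 ± 0.19 (adjusted p = 0.00338), and so was Il2rb, at -0.98 ± 0.17 (adjusted p = 0.0116) and 0.79 ± 0.17 (adjusted p = 0.025). Icos was lower at day 7 (-1.45 ± 0.29, adjusted p = 0.0235) and Ifng, the gene of interferon gamma, higher at day 14 (2.32 ± 0.54, adjusted p = 0.033). Of 15 listed gamma delta T cell genes 3 were measured (Sox13, Cd163l1 and Blk), and none had even an unadjusted limma p under 0.05 in any of the 5 comparisons. Txk, Zap70, Prkcq, Cd6, Themis and Cd2 were named after their values were seen.

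Markers of other cells that the beads could hold moved with the members to different degrees, and their part in the members' differences was not tested. Median log2 ratios stand for levels here, which the ratios do not give, so whether a marker was absent is not known. The list medians, averaged by group, had the members' order of groups for NK cell genes, for B cell genes and for the T cell identity genes. NK cell genes (21 of 24 measured) had 1 lower in IFNAR-/- mice at day 7 and 3 higher at day 14. Their medians were 0.08 to 0.28 in the wildtype day 7 arrays, -0.29 to -0.17 in the IFNAR-/- day 7 arrays, -0.30 to -0.03 in the wildtype day 14 arrays and -0.005 to 0.56 in the IFNAR-/- day 14 arrays. Among them Nkg7, a gene of cytotoxic granules, was higher at day 14 (2.44 ± 0.53, adjusted p = 0.0261), and Klrk1, the gene of NKG2D, lower at day 7 (-2.30 ± 0.45, adjusted p = 0.0212); cytotoxic T cells express both. Classical dendritic cell genes (19 of 20) had 8 lower at day 7 and 4 higher at day 14, with medians of 0.29 to 0.39 in the wildtype and -0.49 to -0.04 in the IFNAR-/- day 7 arrays, and -0.36 to -0.10 and -0.06 to 0.32 at day 14. B cell genes (13 of 15) had 0 calls by limma between genotypes on either day, with 1 at day 7 and 3 at day 14 at an unadjusted p under 0.05. Their group averages were -0.06, -0.05, -0.01 and 0.09 in that order of groups, with single arrays from -0.18 to 0.20. Plasmacytoid dendritic cell genes (13 of 14) had 3 lower in IFNAR-/- mice at day 7 (Irf7, Bst2 and Pacsin1) and 3 different ones lower at day 14 (Siglech, Klk1 and Cd209d). Over all genes 246 and 599 were called as lower. The list median was below 0 on both days (-0.58 and -0.60), so the list did not follow the members' turn. Neutrophil genes (10 of 12) had 1 higher on each day. Alveolar macrophage genes (15 of 20) had 0 calls between genotypes at day 7 and 3 higher in IFNAR-/- mice at day 14. Their medians were 0.87 to 0.93 in the IFNAR-/- and -0.09 to 0.71 in the wildtype day 7 arrays. The genotypes were thus apart at day 7, in the direction opposite to the members. At day 14 the medians were -0.57 to 0.04 and -1.11 to -0.38, and overlapped. From day 7 to day 14, 7 genes fell in wildtype and 7 in IFNAR-/- mice, where 7 of the 9 members rose. Of all genes 4.1% and 8.25% fell.

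**Figure D4:**
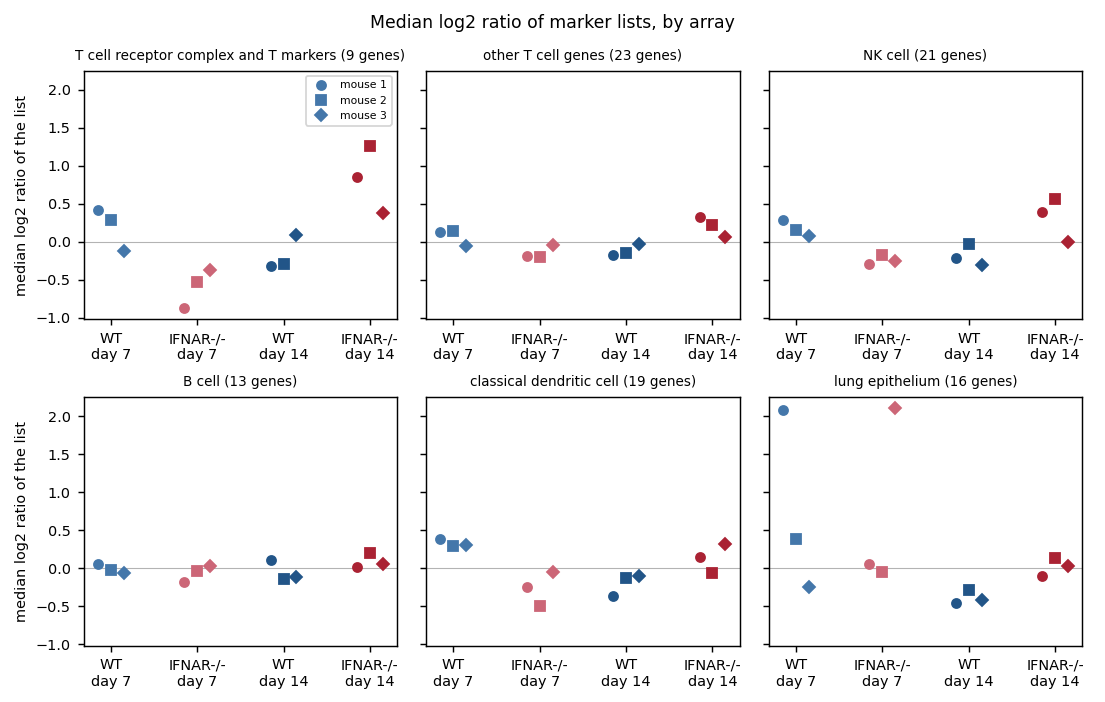
Median log2 ratio (vertical axis) of each of 6 gene lists in the 12 arrays, grouped by genotype and day; a point is 1 array. The members range from -0.87 to 1.27, and the epithelial list stands at 2.11 in IFNAR-/- day 7 mouse 3 and 2.08 in wildtype day 7 mouse 1 and between -0.46 and 0.38 elsewhere.

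Markers of lung tissue varied mostly between single arrays at day 7, and their part in the members' differences was not tested. Between genotypes the epithelial list (16 of 17 measured) had 1 gene lower on each day, and the endothelial (14 of 14) and fibroblast (15 of 15) lists had 0 calls by limma on either day and 0 genes at an unadjusted p under 0.05. Epithelial medians were between -0.10 and 0.13 in IFNAR-/- mice at day 14, where the members stood highest, and between -0.46 and -0.29 in wildtype mice. Fibroblast medians that day were -0.04 to 0.08 in IFNAR-/- and -0.42 to -0.38 in wildtype mice. Both lists thus lay higher in IFNAR-/- mice at day 14, the members' direction, while endothelial medians overlapped. In that comparison 14 of 16 epithelial, 13 of 15 fibroblast and 8 of 14 endothelial genes were above 0, against 50.5% of all genes. Within each day 7 group the array high in tissue markers was also the one with the highest members' median: -0.36 in IFNAR-/- mouse 3 against -0.87 and -0.52 in mice 1 and 2, and 0.42 in wildtype mouse 1 against 0.29 and -0.11 in mice 2 and 3. Without IFNAR-/- day 7 mouse 3 and wildtype day 7 mouse 1, the members called were 6 of 9 for the day in IFNAR-/- mice, 5 between genotypes at day 14, 0 at day 7 and 2 for the change of the genotype difference. Over all genes 1177, 759, 201 and 200 were then called in that order, against 2244, 917, 481 and 451 with all arrays. Without IFNAR-/- day 7 mouse 3 and IFNAR-/- day 14 mouse 2, the members called were 6, 0, 0 and 5, beside 1136, 932, 551 and 579 of all genes.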

How the data were processed

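RNA of pulmonary CD11c+ cells of 12 mice was measured on 12 Affymetrix mouse arrays. The submitters' processing notes name RMA, without a version. The deposited values are linear ratios: the authors' value of a probe set divided by about its own median over the 12 arrays. That division was read from the values, since all but 2 of the 45101 probe sets had a median within 0.02 of 1. It removes the absolute level, so the ratios do not show which probe sets lay near background. The number of arrays limits the precision. The log2 ratios of probe sets with the same single gene symbol were averaged, giving 18193 genes, 9183 of them from 1 probe set. Of the probe sets, 64 were controls, 9160 carried no symbol and 932 several. No value was filtered.

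All genes were fitted with 4 group means in limma 3.58.1 in R 4.3.3 (8 residual degrees of freedom, prior 3.21). Tests were two-sided and adjusted by Benjamini-Hochberg over 18193 genes, with a threshold of 0.05. The 5 comparisons share arrays and 1 estimate of the spread. The code was tested on simulated data. The design had assumed probe intensities; ratios were found, which limma fits on the log2 scale.

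The members and the gene lists were chosen with earlier results of these data known. The text names all members with their probe sets, up to 3 genes of lowest p per list in each genotype comparison, the 8 genes most correlated with the members' mean, and Itgax. Alternatives were quantile normalization applied again, array medians subtracted, probe sets tested singly or chosen by SD, another variance prior, array weights, a replicate block, fits of only the arrays compared, control signals as covariates, and arrays left out. For probe sets tested singly, the set with the lowest p stood for its gene in each comparison, which favours calls.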

Additional observations from a re-analysis of the deposited data

Results flagged for a closer look

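The genotype effect differed between day 7 and day 14 for 5 members by the limma test of the difference itself: the change from day 7 to day 14 in the log2 difference between IFNAR-/- and wildtype mice was 3.55 for Thy1, 3.44 for Cd3g, 3.37 for Cd8b1, 3.05 for Cd3d and 0.74 for Cd247 (adjusted p from 0.0158 to 0.0363). Of the 12 fits with 1 array left out, Cd247 lost its call in 8, Cd3d in 5, Cd8b1 and Thy1 in 4 each and Cd3g in 0. With the 5' over 3' control signal as a covariate the values for Thy1, Cd3g, Cd8b1, Cd3d and Cd247 were 3.71, 3.35, 3.96, 3.53 and 0.70. With it 0 passed (adjusted p from 0.143 to 0.298). Over all genes 3 passed with that covariate in place of 451. For Cd8a all 3 IFNAR-/- arrays lay below the wildtype arrays at day 7 and above them at day 14, with a change of 1.48. That change did not pass its test (adjusted p = 0.0678), while 1 of its 5 probe sets, 1451673_at, passed by itself (2.44, adjusted p = 0.0381).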

How the results depend on the processing

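Of the single members' differences under the alternatives, 948 kept direction and side of the threshold, 85 lost their call, 32 gained one and 6 turned sign. Most of these differences were uncalled with all arrays, so keeping the side mostly meant staying uncalled. For the day 14 genotype difference, the calls were lost in 8 of the 12 fits with 1 array left out for Thy1, 7 for Cd3d and 5 each for Cd3g, Lat and Cd8b1. The day difference in IFNAR-/- mice held best: 7 members were called, and 6 to 8 with each array left out. With each array left out the counts called ranged from 0 to 6 for the day 14 genotype difference (5 with all arrays), 0 to 3 for day 7 (0), 0 to 1 for the day in wildtype mice (0) and 1 to 7 for the change of the genotype difference (5). The day 14 count was 2 with array weights, 1 with only the arrays compared, 0 with the 5' over 3' signal as covariate and 0 without IFNAR-/- day 7 mouse 3 and IFNAR-/- day 14 mouse 2. The count for the change was 8 with array weights, 0 with the 5' over 3' signal as covariate and 2 without IFNAR-/- day 7 mouse 3 and wildtype day 7 mouse 1. The day 7 count was 7 with array weights and 1 with the poly-A signal as covariate, all lower, and the wildtype day count was 1 with array weights and 1 with only the arrays compared. Over all genes, 917 were called at day 14 against 37 with the 5' over 3' covariate and 1899 with array weights, 481 at day 7 against 1882 with array weights, and 451 for the change against 3 and 1765. The causes were not tested. All 6 sign turns were in the uncalled wildtype day difference: Cd8a (-0.04) became 0.056 with quantile normalization, 0.34 with its most variable probe set, 0.18 without both arrays high in lung tissue markers, and ran from -0.27 to 0.18 with each array left out, and Lat (-0.10) ran from -0.29 to 0.071.

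Mouse numbers repeat across groups but name different mice. Over 12 pairs of same-numbered mice the correlation of deviations from the group means ran from -0.40 to 0.23 and was above 0.1 for 2. With 3 mice per group this cannot exclude a link between arrays of the same number. With the number as a replicate block 3 members were called at day 14 in place of 5, and the other counts were 0 at day 7, 0 and 7 for the day in wildtype and IFNAR-/- mice and 5 for the change.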
